A study of Mus musculus with 2 samples.

Results

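A rare population of barcodes, gated on the high-affinity IgE receptor genes Fcer1a and Ms4a2, the granule protease genes Cpa3 and Mcpt8 and the activating receptor gene Cd200r3, was described in single-cell RNA libraries of mouse liver tumors. There were 55 such barcodes of 21304 kept, 22 of 11451 in the hKO library and 33 of 9853 in the WT library. They were chosen by their counts: at least 3 unique molecular identifiers (UMIs, each standing for 1 captured transcript) summed over the 5 genes, at least 2 of the genes detected, at most 1 UMI of Cd3d, Cd3e and Cd3g together, at most 3 UMIs of C1qa, C1qb and C1qc together, and none of Cd79a. A barcode was kept with at least 500 UMIs, at least 200 genes and at most 25% mitochondrial UMIs.

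The hKO mice carried FABP5 Alb-CRE-ER, a tamoxifen-inducible recombinase under the albumin promoter that removes Fabp5, a fatty acid chaperone, in hepatocytes; the WT mice were their littermates. All were C57BL/6J. Both groups received tamoxifen at 6 to 8 weeks of age, 5 doses of 100 mg/kg given every 3 days after 16 h of fasting, and from 2 weeks after the last dose were fed CD-HFD for 15 months. Each group is 1 droplet-based library made from 2 to 3 pooled hepatocellular carcinomas, so genotype, pool and library cannot be told apart, and because the recombinase acts in hepatocytes the gated barcodes are not its labelled target. With 1 library per group no test was possible: ratios are hKO over WT, 95% intervals cover counting error only, and "higher" or "lower" names a size in these 2 pools.

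Basophils and mast cells both carry the tetrameric IgE receptor, whose alpha chain (Fcer1a) binds IgE and whose beta chain (Ms4a2) amplifies the signal. When antigen crosslinks the bound IgE, the cells release histamine and proteases from granules and make lipid mediators, cytokines and chemokines. In mice, basophils circulate and carry the protease Mcpt8, whereas connective tissue mast cells reside in tissue, need the receptor tyrosine kinase Kit and hold the chymases Cma1 and Mcpt4 and the tryptases Tpsb2 and Tpsab1, of which the C57BL/6 strain is known to lack the Tpsab1 product.

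GATA2 is a zinc finger factor that reads the letters GATA, and Gata2 was itself among the genes that set these barcodes apart. The promoters of 3 gate genes are shown because they span what was found: Ms4a2 and Cd200r3 with the most matches and Mcpt8 with none. Each covers 250 bases before to 50 bases after the start in RefSeq on GRCm38.p6, 5′ to 3′ on the gene's strand, and capitals mark a GATA motif on either strand: the 6 letters NGATAN with A or T first and A or G last. Adjacent matches can lie end to end.

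Ms4a2, chr19:11623670-11623969, minus strand: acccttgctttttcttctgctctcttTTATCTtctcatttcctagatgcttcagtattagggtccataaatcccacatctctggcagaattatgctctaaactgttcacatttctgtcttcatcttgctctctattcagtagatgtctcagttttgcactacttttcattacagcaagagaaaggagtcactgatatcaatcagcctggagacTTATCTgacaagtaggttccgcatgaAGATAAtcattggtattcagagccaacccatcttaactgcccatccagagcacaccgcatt

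Cd200r3, chr16:44943428-44943727, plus strand: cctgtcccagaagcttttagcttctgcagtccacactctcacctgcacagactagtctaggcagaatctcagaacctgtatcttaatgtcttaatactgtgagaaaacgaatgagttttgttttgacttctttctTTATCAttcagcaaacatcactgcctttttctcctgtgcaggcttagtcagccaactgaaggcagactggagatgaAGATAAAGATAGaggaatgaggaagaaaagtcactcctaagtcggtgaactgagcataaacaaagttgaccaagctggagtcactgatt

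Mcpt8, chr14:56085148-56085447, minus strand: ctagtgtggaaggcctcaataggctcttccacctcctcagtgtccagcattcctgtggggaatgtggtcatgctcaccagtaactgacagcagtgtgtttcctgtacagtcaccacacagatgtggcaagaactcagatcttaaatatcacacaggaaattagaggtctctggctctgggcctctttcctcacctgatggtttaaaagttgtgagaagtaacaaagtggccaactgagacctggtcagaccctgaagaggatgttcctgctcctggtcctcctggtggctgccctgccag

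Ms4a2 and Cd200r3 held 3 matches each, and in both promoters the matches nearest the start began within 40 bases before it, at 37 and 11 bases for Ms4a2 and at 39 and 33 bases for Cd200r3. Cpa3 and Fcer1a held 1 match each, beginning 46 and 92 bases before the start, so that 4 of the 5 gate genes held at least 1. Of all 32851 promoters of this length, 9778 (29.8%) held a match. Promoters of genes outside the gate were searched too. Neither promoter of Gata2 held a match, and Hdc held 1, beginning 221 bases before the start. Cyp11a1 had a promoter with 0 matches and another with 1, beginning 231 bases before the start. A match is a string of letters and shows no binding.

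The gate genes, whose values chose the barcodes, were strong but sparse at the level of a single barcode. Cd200r3 had 74 UMIs in 20 of 22 hKO barcodes (median 3, highest 9) and 148 UMIs in 32 of 33 WT barcodes (median 3, highest 11). Ms4a2 had 43 UMIs in 20 hKO barcodes and 96 UMIs in 31 WT barcodes. Fcer1a had 31 UMIs in 17 hKO barcodes and 76 UMIs in 29 WT barcodes. The receptor chains were thus seen in most barcodes of both libraries. The proteases were patchier: Cpa3, a carboxypeptidase, had 47 UMIs in 14 hKO barcodes and 66 UMIs in 23 WT barcodes. Mcpt8 had 31 UMIs in 15 hKO barcodes and 50 UMIs in 15 WT barcodes. The summed gate UMIs per barcode ran from 3 to 21 in hKO with a median of 9, and from 4 to 41 in WT with a median of 11, and all 5 genes were seen in 8 hKO and 9 WT barcodes. At the edge of the gate, 2 hKO barcodes and no WT barcode had a sum of exactly 3, and 2 hKO barcodes and no WT barcode stood just outside it with 2 UMIs from 2 genes. A further 17 hKO and 18 WT barcodes held a single UMI of these genes.

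**Figure D1:**
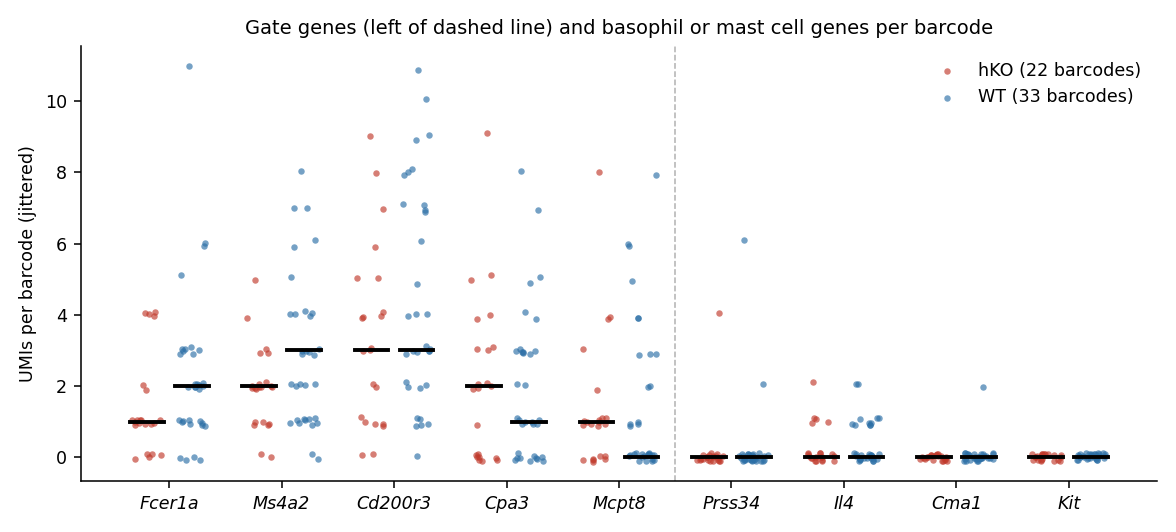
UMIs per barcode of the 5 gate genes and of 4 further basophil or mast cell genes, for 22 hKO and 33 WT gated barcodes; each point is a barcode and each bar a median. Receptor genes were seen in most barcodes, Il4 in 5 hKO and 11 WT barcodes, Cma1 in 1 WT barcode, and Kit in none.

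Markers of the basophil part of the name were present, and those of the mast cell part were nearly absent. Of the 5 mast cell markers, Kit, Mcpt4, Tpsb2 and Tpsab1 had 0 UMIs in both libraries, and Cma1 had 0 UMIs in hKO and 2 UMIs in 1 WT barcode. All 5 basophil markers were detected in both libraries. Of the 3 that the gate did not use, Itga2, the integrin behind the CD49b label of mouse basophils, had 16 UMIs in 9 hKO barcodes and 39 UMIs in 22 WT barcodes. Il4, the type 2 cytokine, had 6 UMIs in 5 hKO barcodes and 13 UMIs in 11 WT barcodes, 22.7% and 33.3% of barcodes beside 0.415% and 0.817% of T-gated ones. Prss34, a basophil tryptase, had 4 UMIs in 1 hKO barcode and 8 UMIs in 2 WT barcodes. By granule genes, at least 2 UMIs of Mcpt8 and Prss34 together and more than of the mast cell markers, 5 of 22 hKO barcodes (22.7%, Clopper-Pearson 7.82 to 45.4) and 11 of 33 WT barcodes (33.3%, with an upper bound of 51.8) were of basophil type. Mcpt8 is a gate gene and Prss34 was seen in 1 hKO and 2 WT barcodes, so this count rests almost wholly on a gene that chose the barcodes and is a description. None of the 22 hKO barcodes and 1 of 33 WT barcodes was of mast type, and 17 and 21 were undetermined. The Clopper-Pearson interval of 0 of 22 reaches 15.4%. The Cma1-positive WT barcode also held 15 UMIs of Ly6c2, a monocyte gene.

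The gated barcodes made up 0.192% of kept barcodes in hKO (0.120 to 0.291) and 0.335% in WT (0.231 to 0.470). The log2 ratio of the shares was -0.80, with an interval of -1.65 to 0.02 that reaches 0. Among kept barcodes with a UMI of Ptprc, the pan-leukocyte gene, they were 19 of 8727 in hKO (0.218%) and 22 of 6970 in WT (0.316%). With no mitochondrial limit the shares were 22 of 18064 in hKO (0.122%) and 35 of 12065 in WT (0.290%).

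The 22 hKO barcodes held 73663 UMIs (median 2902 per barcode, 1522 to 9523) and the 33 WT barcodes 122453 UMIs (median 3080, 1768 to 9504), with median mitochondrial shares of 7.40% and 5.80%. Kept barcodes had a median of 3907 UMIs in hKO and 3932 UMIs in WT. The libraries share 73 barcodes, and 0 gated barcodes of either library were present in the other. RNA of other cells was present and unequal. The 12 hepatocyte markers, all detected in both, took 0.977% of gated UMIs in hKO and 0.274% in WT, with 10 to 141 UMIs per barcode in hKO and 2 to 32 in WT. In T-gated barcodes, which do not make them, the same markers took 0.453% in hKO and 0.236% in WT. The 4 hemoglobin genes took 0.0217% of gated UMIs in hKO and 3.79% in WT, where 1 barcode held 2240 of the 4646 UMIs. The gate of another class was also met by 3 hKO barcodes (3 monocyte, 2 of these plasmacytoid dendritic, 1 endothelial) and by 6 WT barcodes (2 monocyte, 3 endothelial, 1 erythroid); these are called mixed barcodes here. Defining markers of other granulocytes were at 0: S100a8, S100a9, Retnlg and Csf3r of neutrophils, and Epx, Prg2, Ear1 and Ear6 of eosinophils. Of the rest, the neutrophil receptor Cxcr2 had 20 UMIs in hKO and 45 UMIs in WT, and the eosinophil genes together 2 and 3 UMIs.

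Beyond the gate, the genes that stood highest over all other kept barcodes, both libraries pooled, included genes long known from basophils. This ranking follows from the gate and is a description. Levels are 3′ tag counts scaled to 1e+06 gated UMIs (CPM). Fcer1a stood at 546 CPM, 2987 times its level of 0.183 CPM in other barcodes, and was followed by Ms4a2 at 2874 times, Mcpt8 at 2154 times and Cd200r3 at 1333 times. The first gene outside the gate was Cyp11a1, the enzyme that turns cholesterol into pregnenolone, at 597 CPM and 975 times, with UMIs in 50 of 55 barcodes. It had 516 CPM in hKO and 645 CPM in WT. Il6, an inflammatory cytokine, stood at 994 CPM and 456 times, and Gata2 at 954 CPM and 228 times. Slc18a2, which loads amines into granules, stood at 301 CPM and 211 times. Ifitm1, Slc24a3 (a sodium, potassium and calcium exchanger), Csf1, Rab44, Hdc and Aqp9 (a channel for water and glycerol) completed the 15. For 5 of these, Ifitm1, Csf1, Rab44, Hdc and Aqp9, neutrophil-gated barcodes held the next highest level. Hdc had 4502 CPM in gated barcodes and 1264 CPM in neutrophil-gated ones.

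**Figure D2:**
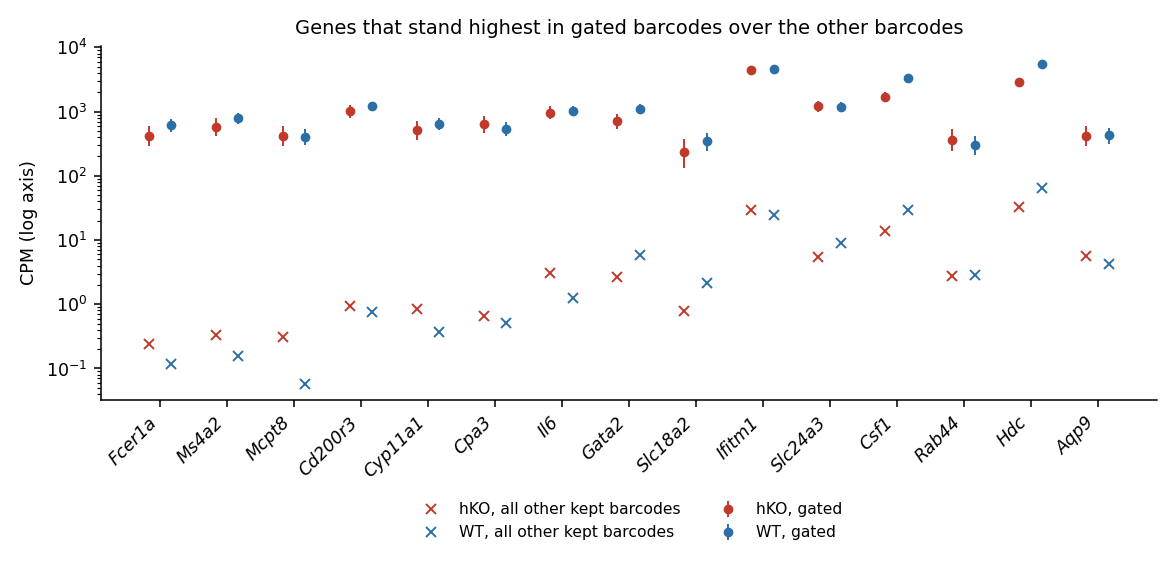
CPM (log axis) of the 15 genes with the highest ratio of gated over all other kept barcodes, at 300 CPM or more in gated barcodes; circles with 95% Poisson intervals are hKO and WT gated barcodes and crosses the other kept barcodes. Hdc and Csf1 are the genes whose hKO and WT levels stand farthest apart among the 15.

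Comparing hKO with WT, 1702 genes had at least 20 gated UMIs over both libraries and UMIs in at least 5 gated barcodes of the higher library. A gene passed the size rule where its log2 ratio was 1 or more, or -1 or less, and its interval left out 0. By this rule 119 genes (6.99%) were higher and 98 (5.76%) lower in hKO, and the median log2 ratio was -0.07. Of the 119, 25 encode ribosomal proteins. Of 79 ribosomal-protein genes compared none was lower, and their median log2 ratio of 0.62 compares with 0.70 for the same genes in all other barcodes. Ratios over all other barcodes mix the level of a gene with the numbers of each class. Endothelial-gated barcodes numbered 1042 in hKO and 1891 in WT, neutrophil-gated 338 and 514, and hepatocyte-gated 599 and 128. Plasmacytoid dendritic ones numbered 1189 and 369. A further 22 of the 119 were held by hepatocyte-gated hKO barcodes at over 10 times the gated level and were set aside.

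Fabp5, the gene deleted in hepatocytes, was among the 10 lowest. In hepatocyte-gated barcodes it had 13 UMIs (9.93 CPM, 599 barcodes) in hKO and 26 UMIs (30.2 CPM, 128 barcodes) in WT, a log2 ratio of -1.60 (-2.69 to -0.59). Which stretch of the gene was deleted is not stated in the labels, so tags from outside it may remain. In the gated barcodes there was 1 UMI, in 1 of 22 hKO barcodes (13.6 CPM, 0.344 to 75.6), and 20 UMIs in 15 of 33 WT barcodes (163 CPM, 99.8 to 252). No WT barcode held more than 3, so the WT level was spread over many barcodes. The log2 ratio was -3.59 (-8.96 to -0.94), and without the mixed barcodes it was -3.54, from 1 UMI in hKO and 19 in WT. In WT the gated barcodes stood above each of the 12 other gated classes, of which neutrophils were next at 44.9 CPM (35.2 to 56.3). In hKO neutrophils had 23.0 CPM, a log2 ratio of -0.96 (-1.57 to -0.38), while macrophages stood at 25.8 CPM in hKO and 19.7 CPM in WT (0.39, 0.16 to 0.61) and T cells at 18.6 and 9.89 CPM (0.91, 0.61 to 1.21). Over all other kept barcodes the log2 ratio was 0.05. A UMI of Fabp5 was seen in 4.55% of hKO gated barcodes and 8.83% of hKO T-gated barcodes, and in 45.5% of WT gated and 3.93% of WT T-gated barcodes, where the median depths were 5314 and 4627 UMIs. After each barcode was thinned to 1000 UMIs, the gated shares were 4.55% in hKO and 12.1% in WT. Thinned T-gated barcodes held a UMI in 1.25% in hKO and 0.462% in WT. The hKO share of gated barcodes is 1 barcode with 1 UMI. Free RNA from hepatocytes differed between the libraries and its part in the Fabp5 values was not tested.

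**Figure D3:**
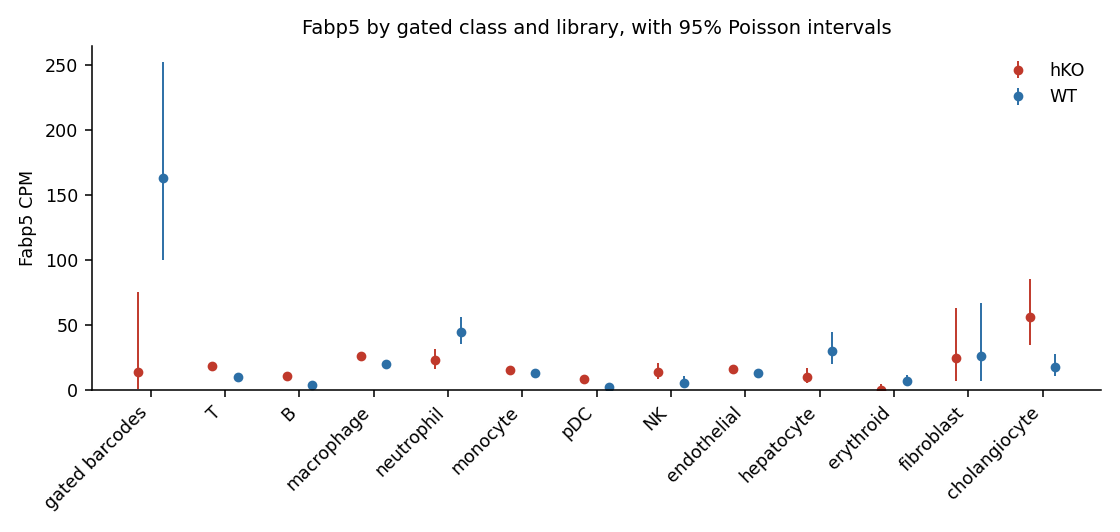
Fabp5 in CPM by gated class, hKO left of WT in each pair, with 95% Poisson intervals. The gated barcodes stand at 13.6 CPM in hKO and 163 CPM in WT; every other class lies at 55.9 CPM or below in both libraries.

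Among the 10 highest genes in hKO, several were hepatocyte products or rested on mixed barcodes. Vtn (vitronectin) had 29 UMIs in 13 hKO barcodes and 3 UMIs in 3 WT barcodes, a log2 ratio of 4.01 (2.32 to 6.37). Serpina3k, a serine protease inhibitor, and Mug1, a murinoglobulin, each had 19 UMIs in hKO and 2 UMIs in WT. All 3 are secreted by the liver, and hKO hepatocyte-gated barcodes held 3298 CPM of Vtn, 2525 CPM of Serpina3k and 2564 CPM of Mug1, each under 10 times the gated level. A UMI of Vtn was seen in 42.8% of hKO and 5.77% of WT T-gated barcodes. Fn1 (fibronectin) had 22 UMIs in 6 hKO barcodes, of which 1 barcode held 72.7%, and 2 UMIs in 2 WT barcodes; without mixed barcodes the counts were 4 and 2. Ly6d, a surface protein, was among the 4 plasmacytoid dendritic markers counted here, and hepatocyte-gated barcodes held it at 1587 CPM in hKO and 5051 CPM in WT. It had 21 UMIs in hKO and 2 in WT, and 5 and 1 without mixed barcodes. Bst2, an interferon-inducible surface protein abundant on plasmacytoid dendritic cells, had 30 UMIs in 5 hKO barcodes and 8 UMIs in 6 WT barcodes, and 3 and 4 without mixed barcodes. Of the other plasmacytoid dendritic markers, Siglech had 25 UMIs and Klk1 10 UMIs, each in 2 hKO barcodes, and neither had any in WT.

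The other genes among the 10 highest were Acsl1, Ctsl, Pbx3 and Lgals1. The rule for comparing a gene required UMIs in at least 5 hKO barcodes here, so being seen in several barcodes follows from it. Acsl1, which activates long-chain fatty acids for metabolism, had 17 UMIs in 12 hKO barcodes (highest 3) and 4 UMIs in 4 WT barcodes, a log2 ratio of 2.82 (1.20 to 4.85), and 2.52 (0.85 to 4.58) without mixed barcodes, from 14 and 4 UMIs, under the 20 needed. The gated barcodes held 231 CPM of it in hKO and 32.7 CPM in WT, and hepatocyte-gated barcodes 376 and 168 CPM. Ctsl, the lysosomal protease cathepsin L, had 27 UMIs in 5 hKO barcodes and 4 UMIs in 2 WT barcodes (3.49, 1.97 to 5.46), with 12 of the 27 in 1 barcode, and 8 and 1 UMIs without mixed barcodes. Pbx3, a homeodomain factor, had 19 UMIs in 6 hKO barcodes and 5 UMIs in 4 WT barcodes, but 5 and 4 without mixed barcodes, where the interval reached 0. Lgals1, galectin 1, had 29 UMIs in 9 hKO barcodes and 8 UMIs in 6 WT barcodes, a log2 ratio of 2.59 beside 1.39 in all other barcodes; without mixed barcodes it had 11 and 7 UMIs and an interval that reaches 0 (1.36, -0.14 to 2.97). Of the 10 highest genes 1, Vtn, had enough UMIs and barcodes to be compared without mixed barcodes and passed, and of the 10 lowest 4, Fabp5, Acod1, Klf3 and Sept1, were compared and passed.

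The 10 lowest genes were picked by their ratio, and the rule required UMIs in at least 5 WT barcodes. Being seen in more WT than hKO barcodes thus follows in part from the choice, and WT had 33 barcodes against 22. Acod1, which makes the immunomodulatory metabolite itaconate, had 15 UMIs in 4 of 22 hKO barcodes (highest 7) and 149 UMIs in 15 of 33 WT barcodes (highest 45), that is 204 and 1217 CPM. The log2 ratio was -2.58 (-3.45 to -1.81), beside -1.21 in all other barcodes, and -2.89 without mixed barcodes. Neutrophil-gated barcodes held 986 CPM of Acod1 in hKO and 2063 CPM in WT, with a UMI in 2.20% of hKO and 1.94% of WT T-gated barcodes. Pfkfb3, which drives glycolysis, had 2 UMIs in 2 hKO barcodes and 19 UMIs in 14 WT barcodes (-2.51, -5.66 to -0.46). Smyd3, a lysine methyltransferase, had 3 UMIs in 2 hKO barcodes and 29 UMIs in 14 WT barcodes (-2.54). Sept1, a septin, had 2 UMIs in 2 hKO barcodes and 20 UMIs in 15 WT barcodes (-2.59), and Klf3, a transcriptional repressor, 3 UMIs in 3 and 34 UMIs in 15 (-2.77). In these 4 genes the WT counts were spread: no barcode held over 29.4% of them. Without mixed barcodes the interval of Pfkfb3 reached 0 (-2.10, -5.28 to 0.02) and Smyd3 had 0 UMIs in hKO and 18 UMIs in WT, under the 20 needed, while Sept1 and Klf3 still passed. The remaining 4 did not pass without mixed barcodes. Maf, a transcription factor, had 1 UMI in hKO and 26 UMIs in 7 WT barcodes, but 0 and 3 without mixed barcodes. Itga1 (an integrin) had 1 UMI in hKO and 24 in WT, and 1 and 9 without them. Apobec1, an RNA-editing enzyme, had 2 UMIs in hKO and 32 in WT, with 56.2% of the WT UMIs in 1 barcode. Prkch, a protein kinase C, had 2 UMIs in hKO and 22 in WT, and 2 and 11 without mixed barcodes.

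**Figure D4:**
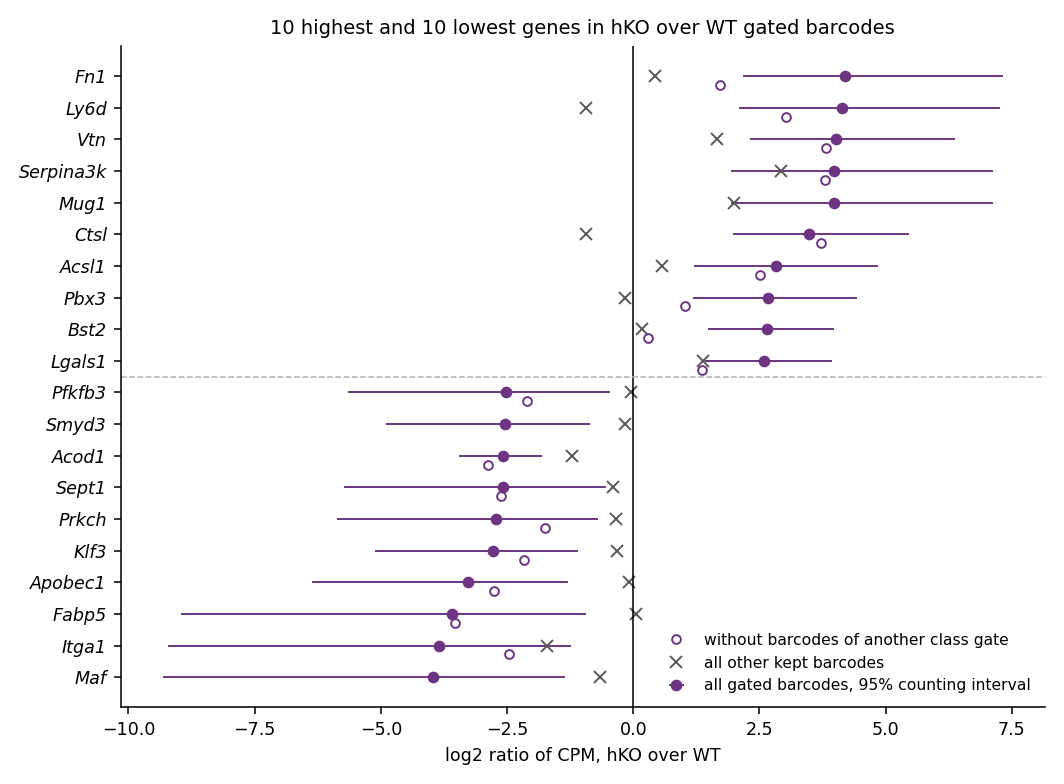
log2 ratio of CPM, hKO over WT, for the 10 highest and 10 lowest genes; filled circles with 95% counting intervals are all gated barcodes, open circles leave out the 3 hKO and 6 WT mixed barcodes (not drawn where a library had 0 UMIs), and crosses are all other kept barcodes. Fn1, Pbx3 and Bst2 lie nearer 0 without the mixed barcodes, while Vtn, Fabp5 and Acod1 move little.

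Granule genes hold the stored mediators. Of 16 listed proteases and amine genes 8 were detected and 5 compared. None passed the size rule in either direction, beside 6.99% higher and 5.76% lower over all genes compared. With so few genes, none passing lies near these shares. Their median log2 ratio was -0.43, beside -0.07 over all genes compared. Hdc, which makes histamine, had 213 UMIs in hKO (median 6 per barcode, 0 to 48) and 670 UMIs in WT (median 18, 1 to 51), or 2892 and 5471 CPM. The barcode ranges overlap, and the log2 ratio of -0.92 (-1.15 to -0.70) compares with -0.98 in all other barcodes. It was -1.14 without mixed barcodes, past the size rule. Srgn, the proteoglycan core of granules, had 5389 CPM in hKO and 7268 CPM in WT (-0.43), and Slc18a2 231 and 343 CPM (-0.57, -1.48 to 0.27). Cpa3 stood at 638 CPM in hKO and 539 CPM in WT (0.24, -0.33 to 0.80) and Mcpt8 at 421 and 408 CPM (0.04, -0.65 to 0.72). Cpa3 and Mcpt8 are gate genes and 2 of the 5 compared, so their levels and this median are a description.

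The IgE receptor signals through kinases, adapters and calcium entry. Of 18 such genes 13 were compared, 1 was lower and none higher, beside 5.76% lower and 6.99% higher over all genes compared. Their median was -0.03. Fcer1g, the shared gamma chain, had 1358 CPM in hKO and 1127 CPM in WT (0.27, -0.12 to 0.65), and Gab2, the adapter downstream of the receptor, 1235 and 1184 CPM (0.06). Fcer1a had 421 CPM in hKO and 621 CPM in WT (-0.56, -1.21 to 0.06), and Ms4a2 584 and 784 CPM (-0.43, -0.98 to 0.11); both are gate genes and enter the median as a description. The gene that passed was Stim1, the calcium sensor of the endoplasmic reticulum, with 4 UMIs in 4 hKO barcodes and 28 UMIs in 15 WT barcodes (-2.07, -4.05 to -0.56). Its log2 ratio in all other barcodes was -0.11.

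Receptors for growth factors and alarmins sustain and alert these cells. Of 16 genes 7 were compared, with a median of 0.20. None passed, beside 6.99% higher and 5.76% lower over all genes compared. Il18rap, the accessory chain of the IL-18 receptor, had 67 UMIs in all 22 hKO barcodes and 97 UMIs in 29 of 33 WT barcodes (0.20, -0.27 to 0.66), and Il18r1 39 and 56 UMIs (0.21). Csf2rb, the shared beta chain for IL-3, IL-5 and GM-CSF, had 869 CPM in hKO and 637 CPM in WT (0.45, -0.05 to 0.94). Csf2rb2, its near-identical copy in mice, had 258 and 416 CPM (-0.69, -1.53 to 0.09), and counting may split reads between these copies.

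Among cytokine and growth factor genes Csf1 had the most UMIs. Of 18 genes 5 were compared, with a median of -0.34. None passed, beside 6.99% higher and 5.76% lower over all genes compared. Csf1, the macrophage growth factor, had 124 UMIs in 19 hKO barcodes (median 2, highest 34) and 407 UMIs in 29 WT barcodes (median 7, highest 76), or 1683 and 3324 CPM. Its log2 ratio of -0.98 (-1.28 to -0.69) stood just inside the size rule, was -1.08 in all other barcodes, and was -1.29 without mixed barcodes. Hgf, hepatocyte growth factor, had 1005 CPM in hKO and 1568 CPM in WT (-0.64, -1.05 to -0.25). Il6 had 964 CPM in hKO and 1013 CPM in WT (-0.07, -0.51 to 0.36), and Osm, oncostatin M, 977 and 1241 CPM (-0.34, -0.77 to 0.07). Il4, with fewer than 20 UMIs in all, was not compared and stood at 81.5 CPM in hKO and 106 CPM in WT.

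Chemokines draw other leukocytes into tissue. Of 17 genes 8 were detected and 4 were compared, with a median of -0.13. None passed, beside 6.99% higher and 5.76% lower over all genes compared. Ccl4, an inflammatory chemokine, had 718 UMIs in 20 hKO barcodes (median 12, highest 167) and 1039 UMIs in 30 WT barcodes (median 20, highest 168), or 9747 and 8485 CPM (0.20, 0.06 to 0.34). Ccl3, another of these, had 4493 CPM in hKO and 5463 CPM in WT (-0.28), Ccl9 1697 and 1682 CPM (0.01), and Ccl6 3041 and 5194 CPM (-0.77). Within each library Ccl4 thus ranged from 0 UMIs to the highest value given, and the libraries overlap. Of 17 chemoattractant receptors 5 were compared, with a median of -0.05, and none passed, beside the same shares over all genes compared. Ccr2, the CCL2 receptor, had 23 UMIs in hKO and 51 in WT, Cxcr2 20 and 45, C5ar1 31 and 39, and C3ar1 22 and 36.

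Among 14 lipid mediator genes 3 were compared and 1 was lower, beside 5.76% lower over all genes compared. Their median was -0.51. Alox5ap, which presents arachidonic acid to 5-lipoxygenase, had 1086 CPM in hKO and 1543 CPM in WT (-0.51, -0.90 to -0.12), and Alox5, that enzyme, 231 and 302 CPM (-0.39, -1.31 to 0.48). Ptgs2, the inducible prostaglandin synthase, had 6 UMIs in 1 hKO barcode and 50 UMIs in 9 WT barcodes, 52.0% of them in 1 barcode (-2.33, -3.84 to -1.10). Without mixed barcodes Ptgs2 had 0 UMIs in hKO and 23 UMIs in 7 WT barcodes.

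Of 22 transcription factors 12 were compared, with a median of -0.13. None passed, beside 6.99% higher and 5.76% lower over all genes compared. Without mixed barcodes 1 of 10 was higher and 2 were lower, and with barcodes weighted equally 2 of 12 were lower. With doublets removed 1 of 10 was higher, and with a marker sum of at least 5 1 of 10 was lower. With no filter on low counts 2 of 22 were higher. Gata2 had 52 UMIs in 17 hKO barcodes and 135 UMIs in 29 WT barcodes, or 706 and 1102 CPM (-0.64, -1.13 to -0.17), beside -1.16 in all other barcodes. Among other classes, endothelial-gated barcodes held the most Gata2, 12.9 CPM in hKO and 16.7 CPM in WT. The part of class numbers in the -1.16 was not tested. Runx1 had 2226 CPM in hKO and 1829 CPM in WT (0.28, -0.02 to 0.58). Runx2 had 1276 and 1486 CPM (-0.22), but 41.5% of the hKO UMIs came from 1 barcode and the log2 ratio was -1.15 without mixed barcodes. Ikzf2, a zinc finger factor, had 557 CPM in hKO and 956 CPM in WT (-0.78, -1.33 to -0.26).

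Of 19 adhesion and activation genes 16 were compared, with 3 higher, none lower and a median of -0.08. Over all genes compared 6.99% were higher and 5.76% lower. The 3 higher genes of the list were Ptprc with 66 UMIs in 19 hKO barcodes and 53 UMIs in 22 WT barcodes (1.05, 0.51 to 1.60), the hyaluronan receptor Cd44 with 41 and 27 UMIs (1.34, 0.60 to 2.09) and the integrin Itga4 with 24 and 14 UMIs (1.51, 0.50 to 2.58). Without mixed barcodes Ptprc was at 0.78 and Cd44 at 0.37, both inside the size rule, and Itga4 had 13 and 5 UMIs, under the 20 needed. None of the 13 genes then compared was higher, nor was any of 15 with a marker sum of at least 5. Other settings kept higher genes: 2 of 16 with doublets removed, 3 of 15 with a 10% mitochondrial limit and 2 of 16 with barcodes weighted equally. In basophil-type barcodes only, 1 of 8 was higher and 3 were lower. The activation markers Cd63, which reaches the surface when granules fuse, and Cd69 stood at 706 and 1059 CPM in hKO and at 1266 and 1462 CPM in WT (-0.84, -1.32 to -0.38 for Cd63; -0.47, -0.87 to -0.07 for Cd69). Of 16 inhibitory and related receptors 6 were compared, with a median of -0.40, and 1 was lower, beside 5.76% lower over all genes compared. It was Fcgr3, a low-affinity IgG receptor that activates, with 6 UMIs in 5 hKO barcodes and 36 UMIs in 20 WT barcodes (-1.85, -3.39 to -0.59), beside 0.04 in all other barcodes. Lilrb4a, an inhibitory receptor, had 557 CPM in hKO and 996 CPM in WT (-0.84, -1.39 to -0.32). Without mixed barcodes the log2 ratio of Lilrb4a was -1.08, past the size rule, and 2 of the 4 genes of this list then compared were lower.

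Immediate early genes answer within minutes to stimulation. Both libraries came from tumors digested for 1 h at 37 °C. The part of digestion in the levels of these and other activation genes was not tested. Of 18 stress and immediate early genes 13 were compared, with a median of -0.11. Of these 1 was higher and 1 lower, beside 6.99% and 5.76% over all genes compared. Jun, a subunit of AP-1, had 81 UMIs in 15 hKO barcodes and 274 UMIs in 27 WT barcodes (-1.02, -1.40 to -0.66), and Dusp1, a phosphatase that dampens MAP kinases, 114 UMIs in 12 and 85 UMIs in 17 (1.16, 0.74 to 1.58). In all other barcodes these genes stood at -0.63 and -0.01. Zfp36, Junb and Ier2 were between -0.32 and -0.08. Of 9 glucocorticoid response genes 3 were compared and none passed, beside the same 6.99% and 5.76% over all genes compared. Their median was -0.30 in gated barcodes and -1.13 in all other barcodes.

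Of 17 lipid handling genes 5 were compared, 2 higher and 1 lower, beside 6.99% and 5.76% over all genes compared. Their median of 1.03 rests on these few. With doublets removed none of 3 was higher and 1 was lower (median -0.36), and without mixed barcodes none of 2 was higher and 1 was lower (median -1.41). With barcodes weighted equally 2 of 5 were higher and 1 lower (median 0.98), and with a 10% mitochondrial limit the 1 gene compared was higher. The lower gene was Fabp5, and the higher genes were Acsl1 and Fabp1, the liver fatty acid binding protein, with 13 UMIs in hKO and 8 in WT (1.43, 0.05 to 2.91). Without mixed barcodes Fabp1 had 11 and 7 UMIs and an interval that reaches 0. Fabp1 stood at 2546 CPM in hKO and 4074 CPM in WT hepatocyte-gated barcodes, over 10 times the gated levels. Plin2, a lipid droplet coat protein, had 109 and 122 CPM (-0.17, -1.62 to 1.16). Of 15 interferon response genes 4 were compared and 1, Bst2, was higher, beside 6.99% higher over all genes compared. Their median was 0.19. Ifitm1, an antiviral membrane protein, had 324 UMIs in 21 hKO barcodes and 569 UMIs in all 33 WT barcodes, or 4398 and 4647 CPM (-0.08, -0.28 to 0.12). Of 13 genes for immune regulation and MHC class II 1 was compared, H2-Ab1, with 30 UMIs in 6 hKO barcodes and 25 UMIs in 4 WT barcodes (1.00, 0.18 to 1.82), of which 1 WT barcode held 88.0%. H2-Aa had 50 UMIs in 4 hKO barcodes and 35 UMIs in 1 WT barcode, so class II transcripts sat in few barcodes of either library.

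**Figure D5:**
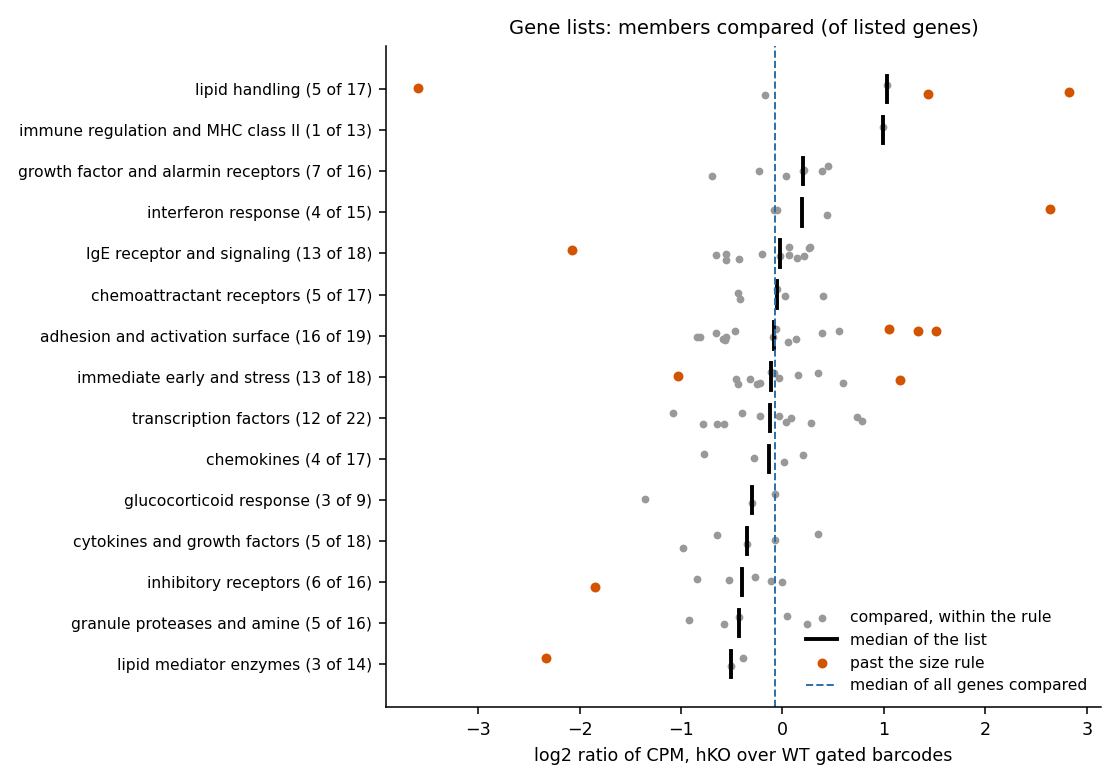
log2 ratio of CPM, hKO over WT gated barcodes, for the genes compared in each of 15 gene lists; orange points passed the size rule, black bars are list medians and the dashed line is the median of all 1702 genes compared. Most list medians lie within 0.5 of that line, and lipid handling spans from -3.59 to 2.82.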

How the data were processed

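Liver tumor cells of 1 hKO and 1 WT library, each a pool of 2 to 3 tumors, were counted by 10x Genomics 3′ sequencing. The counts are whole-number UMI counts per gene and barcode, written by Cell Ranger 7.1.0 per the file headers and deposited by the authors without normalization; the other deposited columns are names of genes and barcodes. The submitters' processing notes name Cell Ranger, R 3.0, Seurat 3 and mm9.

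The barcodes and gene lists were chosen with earlier results of these data known. Counts of gated barcodes were summed per library and scaled to counts per 1e+06 gated UMIs (Python 3.11.15, scipy 1.17.1). Intervals are exact: Poisson for levels, conditional binomial for log2 ratios, Clopper-Pearson for shares. For ratios, 0 counts were replaced by 3 over a library's gated barcodes. With 1 library per group, no test was run. Lists hold 309 genes. Doublets stayed in, and Scrublet scores (scanpy 1.11.5) marked 3 hKO and 2 WT gated barcodes.

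Named are the gate genes, Fabp5, the 15 leading genes, the 10 highest and 10 lowest genes past the size rule (mitochondrial, ribosomal-protein, hemoglobin, immunoglobulin, receptor segment and predicted genes left out, and genes a gated class of the higher library held at over 10 times the level), and of each list the 4 with most UMIs and those past the rule. Sequences are RefSeq's on GRCm38.p6, and no coordinate comes from the counts, noted as mm9. Alternatives changed doublets, mitochondrial and depth limits, the marker sum, scaling, weighting of barcodes, count filters and subset; leaving out mixed barcodes was chosen after seeing the data.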

Additional observations from a re-analysis of the deposited data

How the results depend on the processing

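The share of gated barcodes and its ratio, and the gene counts under the doublet, mitochondrial, depth, marker, scaling and weighting alternatives, stayed within their intervals or within 1.5 times (18 of 24 gene counts). The genes behind the counts changed more. Of the 119 higher and 98 lower genes, 72 and 56 stayed with doublets removed and 71 and 59 with a marker sum of at least 5. A 10% mitochondrial limit kept 80 and 67, equal weighting of barcodes 102 and 76, and the depth limit all 119 and 98. Genes higher and lower in hKO numbered 37 and 55 in basophil-type barcodes only (5 hKO and 11 WT), 55 and 38 with at least 40 UMIs over both libraries, and 330 and 165 with no filter on low counts, against 119 and 98; without mixed barcodes they were 86 and 89, of which 64 and 42 were among the 119 and 98. Of 175 list medians under an alternative 23, from 8 of the 15 lists, had the other sign. Lipid handling, at 1.03, stood at -0.36 with doublets removed, -0.19 with a marker sum of at least 5 and -1.41 without mixed barcodes; growth factor and alarmin receptors, at 0.20, stood at -0.31 with a 10% mitochondrial limit. Further medians moved. With doublets removed, immune regulation and MHC class II, a single gene, reversed to -0.62 and glucocorticoid response stood at -0.0031. With a marker sum of at least 5, lipid mediator enzymes stood at -0.30 and interferon response at -0.17. Without mixed barcodes transcription factors stood at -0.70 and the mast-type share in WT at 0%. In basophil-type barcodes only, growth factor and alarmin receptors stood at 0.48, chemokines at -0.85, chemoattractant receptors at -0.90 and interferon response at -0.20. With no filter, lipid mediator enzymes stood at -0.0037. Thinned to 1000 UMIs per barcode, basophil-type barcodes were 15.2% and mast-type 0% in WT. The cause of these moves was not tested. By construction fewer barcodes, genes or UMIs enter under these settings, except with no filter, where 10646 genes were compared against 1702. Single-gene ratios kept their sign and side of the size rule in most settings. Of these, 17 lost it, 24 gained it and a further 17 moved. Without mixed barcodes only 1 of the 10 highest and 4 of the 10 lowest genes could be compared. No paired analysis was possible because each group is 1 library. The limits on all of it are the single library per group and depth. The 22 hKO barcodes with 73663 UMIs put a count of 3 at 40.7 CPM, so genes under that level in hKO cannot be set apart from 0. Of the 10 lowest genes, Fabp5, Maf, Itga1, Apobec1, Prkch, Sept1 and Pfkfb3 stood under it in hKO, at 13.6 or 27.2 CPM.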

Other observations

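The genes here were chosen after their values were seen. Hrh4, the histamine receptor of leukocytes, had 0 UMIs in 22 hKO barcodes and 12 UMIs in 7 of 33 WT barcodes. Cd200r4, a relative of the gate gene Cd200r3 whose reads may be split between copies, had 1 UMI in hKO and 13 UMIs in 12 WT barcodes. Spi1, the myeloid factor PU.1, had 8 UMIs in 7 hKO barcodes and 28 UMIs in 21 WT barcodes (log2 ratio -1.07, -2.42 to 0.10). Il1rl1, the IL-33 receptor chain, had 16 UMIs in 10 hKO barcodes and 26 UMIs in 12 WT barcodes (0.03, -0.96 to 0.99), and Alox15, a lipoxygenase, 6 UMIs in 6 and 8 UMIs in 7. In T-gated barcodes a UMI of Il1rl1 was seen in 1.62% in hKO and 1.89% in WT.

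Some genes were held by few barcodes. Isg15 and Rsad2, interferon-induced genes, had 0 UMIs in hKO, and 27 and 29 UMIs in 3 WT barcodes each, of which 1 barcode held 92.6% and 93.1%. Tnf had 0 UMIs in hKO and 13 UMIs in WT, all in 1 barcode. Lif had 9 UMIs in 2 hKO barcodes and none in WT. Irf8, a factor of dendritic cells, had 20 UMIs in 3 hKO barcodes and 1 UMI in WT, and the same library held the barcodes with Siglech.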
